A study of Mus musculus with 6 samples.

Results

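Acute phase proteins and antimicrobial proteins are secreted when tissue is inflamed or infected, and 9 genes of this kind were followed in 2 mouse mammary carcinoma cell lines: Lcn2, Saa1, Saa2, Saa3, Slpi, Hp, Ptx3, Cp and Chi3l1. They were chosen by name, with earlier results of these data known, as 9 of the 47729 genes in the deposited table. Of these, 8 carry the same symbol there and Chi3l1 is listed under its other symbol, Chil1. RNA was sequenced from 4T1 and 4TO7, each with 3 libraries (replicates 1 to 3) from cells that came from a spontaneous tumour of BALB/c mice, grew in DMEM with serum and received no treatment. No altered allele and no added agent is stated for either line, so the line is the only stated difference between the groups. A difference in culture or batch between the lines could not be told apart from it. Each line is a single established line, and whether its 3 cultures were independent is not stated, so p-values measure only the spread between these libraries, which may be technical.

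As background, the acute phase response is driven by interleukin 1, interleukin 6 and related cytokines, which act through NF-kB, STAT3 and the C/EBP factors. The liver makes most of the circulating proteins, but epithelial cells, including those of the mammary gland, secrete several of them locally. Lcn2 encodes a lipocalin that captures iron-loaded bacterial siderophores, Slpi an inhibitor of neutrophil proteases, and Cp (ceruloplasmin) a copper enzyme that oxidises iron. Ptx3 is a long pentraxin that recognises microbes, Chi3l1 a chitin-binding lectin without chitinase activity, Hp (haptoglobin) a carrier of free haemoglobin, and the Saa genes encode serum amyloid A proteins.

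The 9 genes did not move together. Slpi and Ptx3 were higher in 4TO7, Chi3l1 was higher in 4T1, Lcn2 and Cp differed in mean but did not pass over the 6 libraries, and the 3 Saa genes and Hp were close to absent from both lines. Values are reads divided by the authors' size factor of the library, with 3 values of a line given in the order of replicates 1 to 3, and means given ± SD with n = 3. A fold change or log2 difference is 4T1 minus 4TO7 on the log2(value + 1) scale with its standard error (SE), and adjusted p is from limma over the 14276 genes that reached 10 in 3 or more libraries. Of the 9 genes 5 met that minimum, and 3 of these were called at adjusted p under 0.05, 1 higher in 4T1 and 2 higher in 4TO7. Over all genes tested 49.0% were called, 25.1% higher in 4T1 and 23.9% higher in 4TO7. Chi3l1 met the minimum only through 4T1, so it could enter the test only by being higher there.

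The libraries held 33605566 to 39072639 reads. On log2 values they correlated across genes at 0.988 to 0.990 within 4T1, 0.978 to 0.994 within 4TO7 and 0.809 to 0.848 between lines. 4TO7 replicate 2 stood apart from its sister libraries, with 211 of the genes tested (1.48%) more than 4-fold lower than the mean of the other 2, against 6 to 35 genes in each of the other 5 libraries. Results that rest on it are given with and without it. Without it, 56.5% of genes were called, 29.2% toward 4T1 and 27.3% toward 4TO7, and all 5 of the genes tested here passed, Lcn2 and Chi3l1 toward 4T1 and Slpi, Ptx3 and Cp toward 4TO7.

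**Figure D1:**
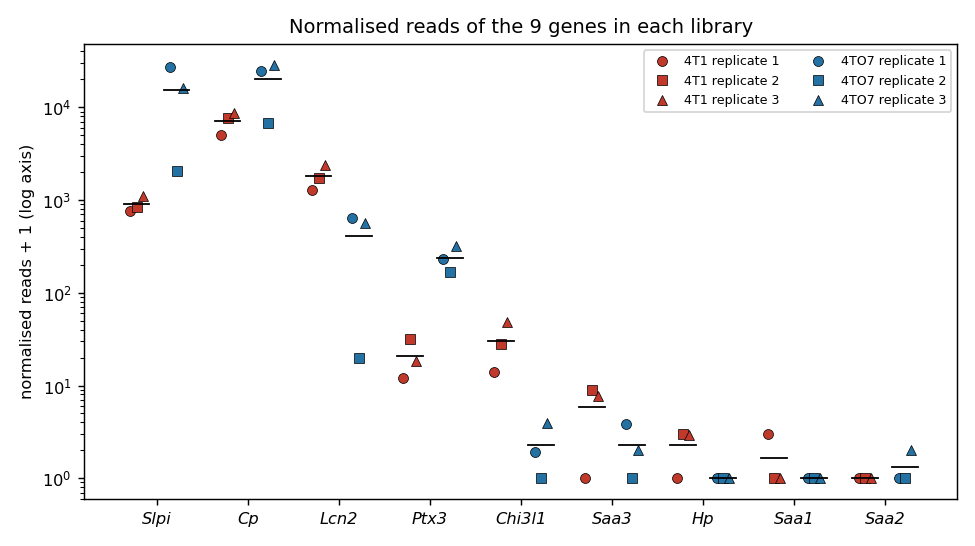
Normalised reads plus 1 (log axis) of the 9 genes in each library, 4T1 in red and 4TO7 in blue, with a marker shape per replicate and a bar at the mean of each line. Slpi reaches 27531 in 4TO7 replicate 1 but 2036 in replicate 2, Lcn2 is at 18.9 in 4TO7 replicate 2, and the 4 genes at the right do not exceed 7.97 in any library.

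The promoters of the 4 genes whose upstream window held no annotated exon and whose levels differ between lines or libraries are shown here, each as the 250 bases before the RefSeq start (GRCm38.p6), 5′ to 3′. Capitals mark a match, on either strand, to the C/EBP motif TTNNGNAA or to the NF-kB consensus.
Slpi, chr2:164356508-164356757, minus strand: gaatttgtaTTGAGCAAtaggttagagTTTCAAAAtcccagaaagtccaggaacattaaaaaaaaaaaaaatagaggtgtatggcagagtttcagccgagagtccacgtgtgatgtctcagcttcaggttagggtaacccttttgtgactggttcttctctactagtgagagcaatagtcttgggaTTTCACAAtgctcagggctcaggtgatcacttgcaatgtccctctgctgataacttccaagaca
Cp, chr3:19956804-19957053, plus strand: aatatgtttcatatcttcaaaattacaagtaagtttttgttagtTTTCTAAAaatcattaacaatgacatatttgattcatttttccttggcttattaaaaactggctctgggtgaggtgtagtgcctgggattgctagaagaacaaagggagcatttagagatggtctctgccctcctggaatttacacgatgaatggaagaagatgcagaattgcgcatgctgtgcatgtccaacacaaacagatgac
Ptx3, chr3:66219637-66219886, plus strand: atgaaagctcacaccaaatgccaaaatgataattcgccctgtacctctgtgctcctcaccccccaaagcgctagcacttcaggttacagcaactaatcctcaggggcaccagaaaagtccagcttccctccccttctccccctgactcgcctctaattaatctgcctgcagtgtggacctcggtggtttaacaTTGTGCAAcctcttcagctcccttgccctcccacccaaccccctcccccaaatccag
Chi3l1, chr1:134181906-134182155, plus strand: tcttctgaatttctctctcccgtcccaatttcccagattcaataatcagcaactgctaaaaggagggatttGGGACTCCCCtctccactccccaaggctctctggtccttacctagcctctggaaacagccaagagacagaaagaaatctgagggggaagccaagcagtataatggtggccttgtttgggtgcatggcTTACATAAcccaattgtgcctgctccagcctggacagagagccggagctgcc
RefSeq windows were found for 8 of the 9 genes, all but Hp. The C/EBP letters occurred in the first window of all 8, and in 36.8% of the 32851 mouse windows of that length. The 8 windows are not independent, since those of Saa1 and Saa2 are 95.6% identical. Annotated exons take up 197 bases of the Lcn2 window, 43 of Saa2 and 24 of Saa3. The NF-kB consensus occurred in 1 of the 8, Chi3l1, and in 7.25% of all windows. The STAT motif TTCNNNGAA and the letters TATAAA were found in none of the 8 first windows (7.02% and 12.4% of all windows). Cp has a second RefSeq start, whose window, not printed, holds TATAAA at bases -25 to -20. The Slpi window lies inside the GENCODE M21 span of the gene, whose upstream end is at 164389095. For Ptx3 and Chi3l1 the bases after the RefSeq start were not found in a GENCODE M21 transcript of the gene. In Chi3l1, the window with both, the NF-kB match spans bases -179 to -170 and the C/EBP match -52 to -45, counted back from the start. A match describes letters and not binding.

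Slpi (ENSMUSG00000017002, chromosome 2, 164354070 to 164389095, minus strand, GRCm38) had the highest level of the 9 genes in a single line per length of transcript. Its normalised reads were 764, 849 and 1104 in the 4T1 libraries, against 27531, 2036 and 16313 in those of 4TO7. The lines did not overlap, as in 58.4% of genes tested, but 4TO7 replicate 2 lay much nearer to 4T1 than to its sister libraries. The means were 905.7 ± 177 and 15294 ± 12778, a log2 difference of -3.44 ± 0.81 (SE; adjusted p = 0.0086). In RNA from whole cultures, fewer cells that express a gene and less RNA per cell cannot be told apart. Without 4TO7 replicate 2 the Slpi difference was -4.56 ± 0.24 (adjusted p = 1.08e-06), and without 4TO7 replicate 1 it was -2.69. The call was lost when no low-value minimum was set (adjusted p = 0.0869). The authors' deposited table gives Slpi an adjusted p of 5.5e-05 in the same direction.

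The short RNA gene Mir7678 lies inside the Slpi span on the same strand (chromosome 2, 164354313 to 164354383) and shares 1 exonic base with it. Its reads numbered 0, 1 and 1 in the 4T1 libraries and 28, 1 and 21 in 4TO7, high in the same libraries as Slpi. Whether those reads came from Slpi transcripts was not tested.

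Ptx3 (ENSMUSG00000027832, chromosome 3, 66219910 to 66225805, plus strand) was higher in every 4TO7 library. It had 11.1, 30.9 and 17.4 normalised reads in the 4T1 libraries, against 228, 165 and 318 in those of 4TO7. The lines did not overlap, and 4TO7 replicate 2 was the lowest of its line, whose highest library held 1.94 times the lowest, a wider spread than in 80.2% of genes tested. The means were 19.8 ± 10.1 and 237 ± 77.4, 12.0-fold higher in 4TO7, with a log2 difference of -3.58 ± 0.41 (SE; adjusted p = 0.000186). It was -3.82 ± 0.41 without 4TO7 replicate 2.

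Ptx3 lies within the span of Veph1, a gene on the opposite strand, with 0 shared exonic bases. Veph1 had 11.1, 24.9 and 25.1 normalised reads in 4T1 and 63.6, 66.0 and 115 in 4TO7, and was also higher in 4TO7 (log2 fold change -1.98 ± 0.40, SE, adjusted p = 0.004). The strand setting of the authors' counting is unknown here, and without it reads from Veph1 introns over Ptx3 exons could not be told from Ptx3 reads.

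Cp (ENSMUSG00000003617, chromosome 3, 19957054 to 20009145, plus strand) had the most reads of the 9 genes in 5 of the 6 libraries. It had 4983, 7625 and 8734 normalised reads in the 4T1 libraries, against 24632, 6702 and 28842 in those of 4TO7. 4TO7 replicates 1 and 3 were above all 4T1 libraries, whereas 4TO7 replicate 2 lay within the 4T1 range, so the lines overlapped. The means were 7114 ± 1927 and 20059 ± 11757, a log2 fold change of -1.28 ± 0.51 (SE), and Cp did not pass (adjusted p = 0.0654).

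When 4TO7 replicate 2 was left out, Cp was called higher in 4TO7, with a log2 difference of -1.94 ± 0.23 (SE; adjusted p = 0.00013). It was also called over all 6 libraries by edgeR (adjusted p = 0.0198) and DESeq2 (adjusted p = 0.00161), and the authors' deposited table gives it an adjusted p of 0.00236. Its far end overlaps Hps3 on the opposite strand, with 108 of 9566 exonic bases shared. Hps3, a gene of lysosome-related organelles, was higher in 4T1 (820 ± 68.9 against 411 ± 191 normalised reads).

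Lcn2 (ENSMUSG00000026822, chromosome 2, 32384633 to 32388252, minus strand) pointed to 4T1. It had 1292, 1724 and 2382 normalised reads in the 4T1 libraries, against 639, 18.9 and 559 in those of 4TO7. All 4T1 libraries were above all 4TO7 libraries, but within 4TO7 the highest library held 33.9 times the lowest. The means were 1799 ± 548 and 406 ± 337, with a log2 fold change of 3.18 ± 1.16 (SE) that missed the threshold (adjusted p = 0.0503). Without 4TO7 replicate 2 the difference was smaller and passed, at 1.54 ± 0.24 (SE, adjusted p = 0.000728), 3.00-fold. Without 4TO7 replicate 1 or 3 it was 4.05 or 3.95 and also passed (adjusted p = 0.0265 and 0.0319). Over the 6 libraries neither edgeR (adjusted p = 0.058) nor DESeq2 (adjusted p = 0.115) called it, nor does the authors' deposited table (adjusted p of 0.135).

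The 3 genes with the smallest Euclidean distance to Lcn2 in centred log2 values over the 6 libraries were Fam131a, Fxyd3 and Shisa2. The values were not scaled, so the size of the differences counted as well as their shape. Fxyd3, which encodes a regulator of the sodium pump, had 39.4, 43.8 and 72.4 normalised reads in 4T1 and 5.61, 0 and 11.9 in 4TO7. Fam131a (64.6 to 114 in 4T1 and 0 to 18.9 in 4TO7) and Shisa2 (46.3 to 68.8 and 0 to 8.96) were also at 0 in 4TO7 replicate 2. The 3 genes were picked for nearness in these same values, so their likeness to Lcn2 is no separate result. Shisa2 reached the minimum for testing in no 4TO7 library. Among the other genes followed here Chi3l1 was the nearest to Lcn2, at rank 70 of the genes tested, while Cp stood at rank 9745, Slpi at 13630 and Ptx3 at 13819.

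Chi3l1 (ENSMUSG00000064246, chromosome 1, 134182176 to 134190181, plus strand) was scarce in 4T1 and scarcer in 4TO7. It had 13.1, 26.9 and 47.3 normalised reads in the 4T1 libraries, against 0.936, 0 and 2.99 in those of 4TO7. The lines did not overlap, and the 4TO7 values rest on 4 reads in all, against 89 in 4T1. The ratio of the 2 lines' shares of reads was 20.3 with an exact 95% interval of 7.66 to 76.2, which covers counting error only. The log2 fold change was 3.76 ± 0.61 (SE, adjusted p = 0.00146), and 3.26 ± 0.57 without 4TO7 replicate 2.

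**Figure D2:**
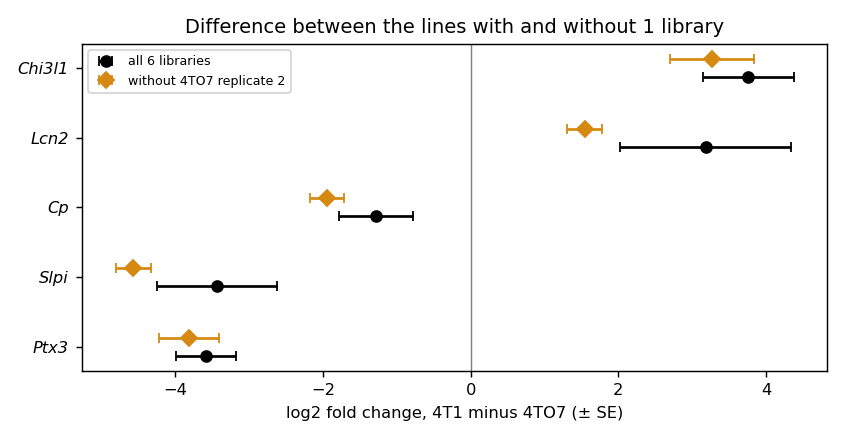
Log2 fold change of the 5 genes tested, 4T1 minus 4TO7, with bars of 1 SE, from all 6 libraries (black) and without 4TO7 replicate 2 (orange). Leaving that library out moves Lcn2 from 3.18 to 1.54, Cp from -1.28 to -1.94 and Slpi from -3.44 to -4.56, and narrows the bars of these 3, while Ptx3 and Chi3l1 change by less than 1 SE.

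The serum amyloid A genes and haptoglobin were at or near the limit of detection. Saa3, the family member best known for expression outside the liver (ENSMUSG00000040026, chromosome 7, 46711998 to 46715700), had 0, 8 and 7 reads in the 4T1 libraries, against 3, 0 and 1 in those of 4TO7. The lines overlapped, and the ratio of the lines' shares of reads, 3.42, had an exact 95% interval of 1.09 to 14.2 for counting error only. Hp had 0, 2 and 2 reads in 4T1 and 0 in all 4TO7 libraries, where the limit is 3 of 104742527 reads. Saa1 had 2 reads, both in 4T1 replicate 1, and Saa2 had 1 read, in 4TO7 replicate 3.

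None of these 4 genes met the minimum for testing. The first listed transcripts of Saa1 and Saa2 in GENCODE M21 are 94.4% identical over 606 aligned bases. Reads that fit both may have been given to either gene or left uncounted, and how they were handled is unknown here. Saa1 and Saa3 are 73.9% identical over 522 aligned bases, a lesser degree of likeness.

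Levels can be compared between genes only per length, here as normalised reads per kilobase of merged exons in GENCODE M21. In 4T1, Slpi (768 ± 150), Cp (744 ± 201) and Lcn2 (686 ± 209) were level with each other within their spread. Chi3l1 (10.4 ± 6.13) and Ptx3 (7.38 ± 3.77) followed far below and did not differ from each other beyond their spread. Saa3 stood at 1.88 ± 1.65. In 4TO7 the order per kilobase was Slpi (12961 ± 10829), Cp (2097 ± 1229), Lcn2 (155 ± 129) and Ptx3 (88.4 ± 28.8), and of these steps Lcn2 to Ptx3 lay within the SD of Lcn2. The steps from Slpi to Cp and from Cp to Lcn2 exceeded the SDs of both neighbours, the former narrowly. Slpi reached the 99.8th percentile of genes tested in 4TO7 replicate 1 and the 99.6th in replicate 3 but the 92.9th in replicate 2, against the 76.6th to 84.1st in 4T1. Lcn2 stood at the 54.9th and 51.5th percentile in 4TO7 replicates 1 and 3 and at the 10.3rd in replicate 2.

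Together the 9 genes took 0.0190%, 0.0266% and 0.0326% of the reads in the 4T1 libraries, against 0.157%, 0.0253% and 0.132% in those of 4TO7. The lines overlapped through 4TO7 replicate 2, and the means of 0.0261 ± 0.0068% and 0.105 ± 0.0699% gave p = 0.3 in an exact two-sided permutation test, in which the smallest possible p is 0.1. Cp alone held 70.5% to 74.3% of these reads in 4T1. In 4TO7 replicate 1 Slpi held 51.9% and Cp 46.5%, and in 4TO7 replicate 2 Slpi held 22.8% and Cp 75.1%.

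The position of 4TO7 replicate 2 differed by gene. Against the mean of 4TO7 replicates 1 and 3 on the log2 scale it differed by -4.91 in Lcn2, a difference that only 3 of the 14276 genes tested exceeded downward. For Slpi it was -3.38 (19 genes further down), for Cp -1.99 (212 genes) and for Ptx3 -0.71 (2033 genes). The position thus ran from the extreme tail to the shoulder of the distribution. For Chi3l1, with 1, 0 and 3 reads in the 4TO7 libraries, a lower value was not detectable at this depth. The labels give no culture, date or batch that sets this library apart.

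**Figure D3:**
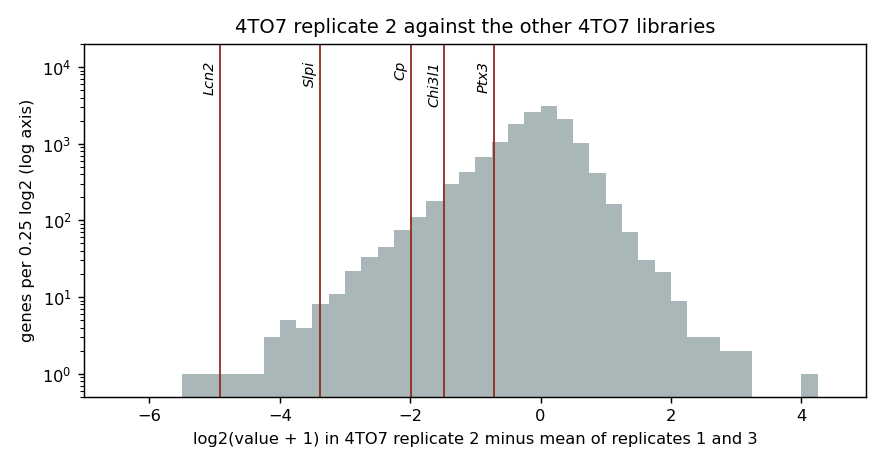
Genes tested per 0.25 log2 units (log axis) by the difference of log2(value + 1) in 4TO7 replicate 2 from the mean of 4TO7 replicates 1 and 3, with red lines at the 5 genes tested; the line of Chi3l1 rests on 0 reads in replicate 2. Lcn2 (-4.91) and Slpi (-3.38) lie in the far left tail, and Ptx3 (-0.71) near the bulk.

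Markers of other cell types were read for the same libraries. Of 9 hepatocyte markers 0 met the minimum and their summed level was 3.86 to 4.98 in 4T1 and 9.43 to 23.9 in 4TO7, with Ttr, Tat and Cyp2e1 at 0 in every library. Of 9 neutrophil markers only S100a8 met it, the sum was 8.97 to 13.5 in 4T1 and 15.9 to 42.8 in 4TO7, and Ly6g, S100a9, Csf3r and Camp were at 0 throughout. Of 8 macrophage markers found 3 were tested and all 3 were called higher in 4T1, against 25.1% of all genes tested. Csf1r, 1 of the 3, reached the minimum only in 4T1, so entry fixed its direction. The 8 macrophage markers summed to 292 to 527 in 4T1 against 97.3 to 179 in 4TO7, with Cd68 the largest part and Emr1 at 0. None of 6 endothelial markers was tested (sums of 12.6 to 21.2 and 15.7 to 65.7).

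Fibroblast markers summed to 590 to 1372 in 4T1 and to 6749, 1721 and 7522 in 4TO7 replicates 1 to 3, nearly all from Pdgfra, with Lum and Thy1 at 0. All 7 epithelial markers were called higher in 4T1, against 25.1% of all genes tested. Krt19 and Cldn3 reached the minimum only in 4T1, so entry fixed the direction of these 2. Krt8 and Krt18, keratins of simple epithelia, were abundant in 4TO7 too (17550 to 25128 and 8118 to 17067), but Krt19 and Cldn3 had at most 2.10 in any 4TO7 library and Epcam 15.7 to 33.8. Cdh1, the epithelial cadherin, had 139 to 221 in 4TO7 against 17314 to 21548 in 4T1, and Krt7 10.3 to 18.9 against 39631 to 46490. The sum of the 7 in 4TO7 was 37658, 25837 and 42471 in replicates 1 to 3, lowest in the replicate in which Lcn2, Slpi and Cp were low. Their part in the results was not tested.

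Among other acute phase genes the largest difference was in Lbp. Of 24 genes in that list 7 were tested, 3 called toward 4T1 and 2 toward 4TO7, against 25.1% and 23.9% of all genes tested. Of these 5 calls 4 (Serpina3g, Steap4, Lbp and Hpx) were of genes that reached the minimum in 1 line only, so their direction was fixed by entry to the test. The median log2 difference of the 7 was -0.88, against 0.03 over all genes tested, and 7 had no read in any library. Lbp, which encodes the carrier that presents lipopolysaccharide to CD14, had 0, 0.996 and 3.86 normalised reads in the 4T1 libraries, against 964, 75.5 and 1788 in those of 4TO7. Its level in 4TO7 replicate 2 was below that of its sister libraries, as for Slpi and Cp. Its log2 fold change was -7.90 ± 1.10 (SE, adjusted p = 0.000604), -9.27 without 4TO7 replicate 2, -6.99 without 4TO7 replicate 3 and -8.49 without 4T1 replicate 3.

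Cd14, the receptor that takes lipopolysaccharide from Lbp, went the other way. It had 475, 311 and 504 normalised reads in 4T1 and 242, 179 and 250 in 4TO7 (log2 fold change 0.92 ± 0.25, SE, adjusted p = 0.0158), without overlap. It was no longer called once 4T1 replicate 1 was left out (adjusted p = 0.0627) or replicate 3 (0.0612). The count of 5 genes called in the list became 3 without 4T1 replicate 3, 9 with no low-value minimum and 2 with a minimum of 50.

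Of 24 other secreted antimicrobial genes 5 were tested and 10 had no read. Of the 5 tested, 3 were called toward 4T1 and 1 toward 4TO7, against 25.1% and 23.9% of all genes tested. Their median log2 difference was 1.01, and 2 were called in all with a minimum of 50. Pglyrp1 reached the minimum only in 4T1 and S100a8, the call toward 4TO7, only in 4TO7, so entry fixed the direction of these 2. Wfdc2, a relative of Slpi with the same kind of inhibitor fold, was higher in 4T1 at 17525 ± 2325 against 8834 ± 2140 (log2 fold change 1.01 ± 0.20, SE, adjusted p = 0.00339), opposite to Slpi. Rnase4, a secreted ribonuclease, had 288 ± 85.7 in 4T1 against 27.2 ± 12.1, a log2 difference of 3.41 ± 0.37 (SE; adjusted p = 0.000151). Leaving out 4TO7 replicate 2 raised the count toward 4TO7 to 2.

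Of 12 receptors and partners of these proteins tested 6 were called toward 4T1 and 3 toward 4TO7, against 25.1% and 23.9% of all genes tested. Without 4TO7 replicate 2 the counts were 6 and 4, against 29.2% and 27.3% of all genes. The median log2 difference over the 6 libraries was 0.05. Mmp9, the gelatinase that forms a complex with lipocalin 2, had 2864, 4280 and 5785 normalised reads in 4T1 and 355, 144 and 461 in 4TO7. It did not overlap and, like Lcn2, was lowest in 4TO7 replicate 2 (log2 fold change 3.85 ± 0.43, SE, adjusted p = 0.000167). Plscr1, a scramblase reported to bind the Slpi protein, was higher in 4TO7 at 5333 ± 748 against 2896 ± 264 (adjusted p = 0.00182).

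The toll-like receptors Tlr2 and Tlr4, which sense microbial products, differed in opposite directions. Tlr2 had 507 ± 151 in 4T1 against 261 ± 37.5 (adjusted p = 0.0151; 0.0507 without 4T1 replicate 3). Tlr4 had 1114 ± 478 against 2058 ± 94.1 in 4TO7 (adjusted p = 0.0192). Tlr4 was no longer called after leaving out 4T1 replicate 1 (adjusted p = 0.0519), 4T1 replicate 2 (0.0671) or 4TO7 replicate 1 (0.0566).

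Iron handling is the setting in which Lcn2, Cp and Hp are best known. Of 11 iron genes tested 3 were called toward 4T1 and 1 toward 4TO7, against 25.1% and 23.9% of all genes tested. Without 4TO7 replicate 2 the counts were 3 and 3, against 29.2% and 27.3% of all genes. The median log2 difference over the 6 libraries was 0.18. Tfrc, the transferrin receptor that brings iron into cells, had 15408, 24731 and 15255 normalised reads in 4T1 and 3830, 11858 and 4094 in 4TO7 replicates 1 to 3. The lines did not overlap, and 4TO7 replicate 2 was the high library, the reverse of its place for Lcn2, Slpi and Cp. The log2 fold change was 1.65 ± 0.41 (SE, adjusted p = 0.0113; 0.053 without 4T1 replicate 2).

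Slc11a2, an iron importer, had the same arrangement, at 1321, 1869 and 1269 in 4T1 and 472, 982 and 476 in 4TO7 (adjusted p = 0.00876). Slc39a14, a metal importer, was higher in 4T1 at 3741 ± 371 against 2403 ± 422 (adjusted p = 0.011; 0.0512 without 4TO7 replicate 1). Steap3, a ferrireductase, was higher in 4TO7 at 1848 ± 427 against 793 ± 100.2 (adjusted p = 0.00148).

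Of 14 inducing cytokines and receptors tested 6 were called toward 4T1 and 5 toward 4TO7, around a median log2 difference of 0.41. Over all genes tested the shares were 25.1% and 23.9%. Of the calls toward 4T1, 4 (Il1a, Il1b, Tnf and Lifr) were of genes that reached the minimum in no 4TO7 library, so their direction was fixed by entry to the test. Il1a, a cytokine that starts the response, had 7792, 5281 and 12688 normalised reads in 4T1, while the 4TO7 libraries together held 3 reads. Lif, of the interleukin 6 family, was higher in 4T1 at 4939 ± 794 against 533 ± 184 (log2 fold change 3.26 ± 0.26, SE, adjusted p = 2.3e-05). Receptor genes were called in both directions, Lifr and Ifngr1 toward 4T1 and Il6ra, Il1rap, Il17ra, Il17rc and Tnfrsf1a toward 4TO7. Il6ra, which binds interleukin 6, had 4475 ± 860 in 4TO7 against 787 ± 88.0 (adjusted p = 1.21e-05), and Il1rap, shared by interleukin 1 receptors, 3817 ± 920 against 1844 ± 374 (adjusted p = 0.00487).

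Of 20 signal and transcription factors tested 9 were called toward 4T1 and 3 toward 4TO7, against 25.1% and 23.9% of all genes tested. Without 4TO7 replicate 2 the counts were 9 and 5, against 29.2% and 27.3% of all genes. The median log2 difference over the 6 libraries was 0.44. Cebpa, 1 of the 9, reached the minimum only in 4T1. Rela, an NF-kB subunit, was higher in 4T1 at 4326 ± 320 against 1856 ± 130 (log2 fold change 1.22 ± 0.13, SE, adjusted p = 0.000124). Nfkbiz, a nuclear cofactor that NF-kB needs at the Lcn2 gene, had 2038, 3666 and 4508 in 4T1 and 1767, 774 and 1562 in 4TO7, lowest in 4TO7 replicate 2. Its adjusted p of 0.018 rose to 0.0706 without 4T1 replicate 2 and 0.0624 without 4T1 replicate 3.

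The C/EBP factors went in both directions. Cebpd was higher in 4T1 at 190 ± 70.7 against 62.7 ± 21.1 (adjusted p = 0.00913), and Cebpg higher in 4TO7 at 4332 ± 956 against 2134 ± 167 (adjusted p = 0.00268). Cebpb, named after its values were seen, had 4063, 4082 and 4692 in 4T1 and 9304, 5404 and 9226 in 4TO7, without overlap and lowest within 4TO7 in replicate 2 (adjusted p = 0.0118).

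**Figure D4:**
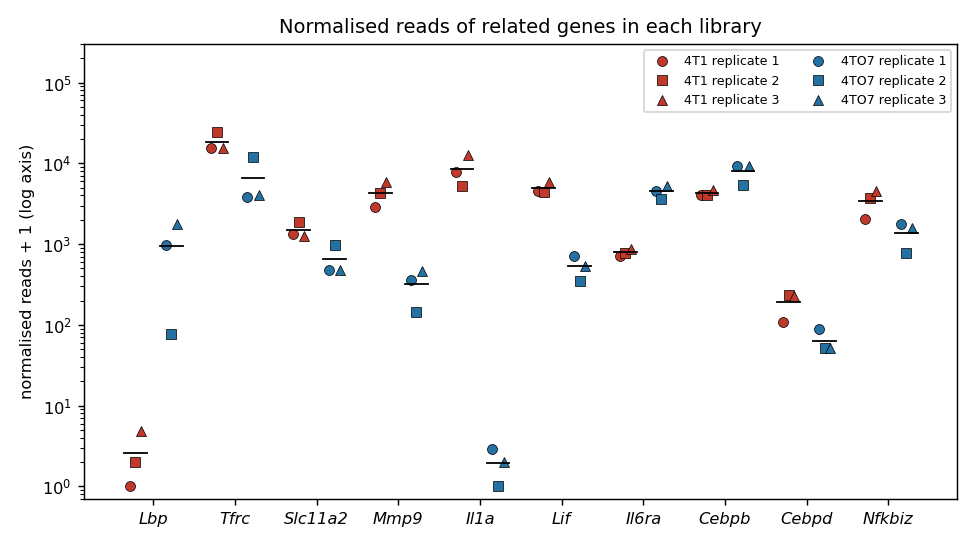
Normalised reads plus 1 (log axis) of 10 related genes in each library, 4T1 in red and 4TO7 in blue, with a marker shape per replicate and a bar at the mean of each line. In 4TO7 replicate 2 (blue square) Lbp is at 75.5 and Mmp9 at 144, below the other 4TO7 libraries, and Tfrc at 11858, above them.

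**Figure D5:**
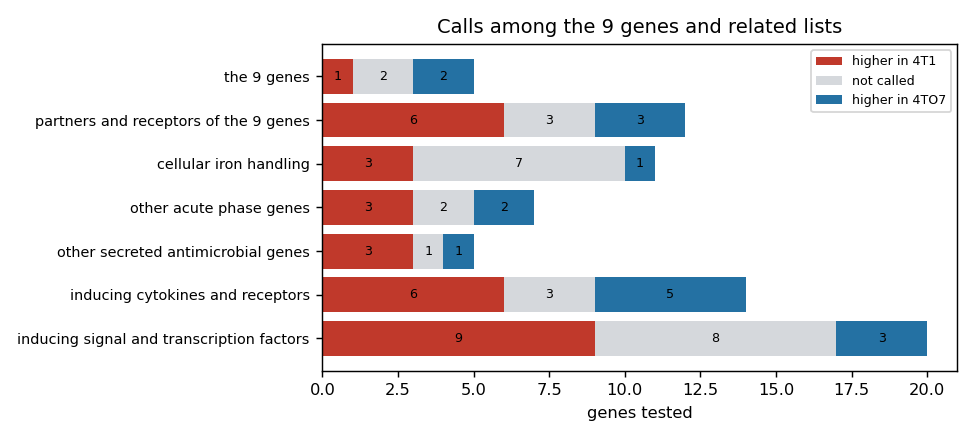
Number of genes tested in each group that were called higher in 4T1 (red), called higher in 4TO7 (blue) or not called (grey) at adjusted p under 0.05. Each group holds calls in both directions, some of genes that reached the minimum in 1 line only. The calls run from 1 and 2 of the 9 genes followed here to 9 and 3 of 20 signal and transcription factors. Over all genes tested 25.1% were called higher in 4T1 and 23.9% higher in 4TO7.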

How the data were processed

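RNA from 3 libraries each of 4T1 and 4TO7 was sequenced. Per the submitters' processing notes, STAR 2.5, featureCounts 1.5 and DESeq2 were used with build GRCm38; annotation release and strand setting are not given in the sources used here. The deposited table holds a normalised signal, gene reads divided by 1 size factor per library, and the authors' own comparison with a mean, log2 fold change, standard error, test score, p-value and adjusted p-value, per the file headers. Divided by the step of its library, each nonzero value came out whole (100% within 1e-06), so reads were recovered for edgeR 4.0.16 and DESeq2 1.42.0, used as alternatives only.

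The lines were compared on log2(value + 1) of the deposited values by limma 3.58.1 (R 4.3.3), group only, with intensity trend and robust moderation, two-sided, Benjamini-Hochberg adjusted over 14276 genes. Genes entered when they reached 10 in 3 or more libraries. The script was tested on simulated counts. The 9 genes and the related lists were chosen with earlier results of these data known. Of 170 list and marker genes 169 were found, 5 by another symbol; Itgam was not matched. Besides the 9 genes, up to 4 genes per list with the greatest fold change were named among those called with a mean of 100 or more in the line where they were higher, and the 3 genes nearest to Lcn2. Exon lengths and spans are from GENCODE M21 (GRCm38). Alternatives changed pseudocount, minimum, scaling, variance model, tool, replicate block and libraries used.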

Additional observations from a re-analysis of the deposited data

How the results depend on the processing

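The 9 genes gave 3 calls in the main comparison and 2 to 5 under the alternatives, with 5 under quantile normalisation, with the replicate block and without 4TO7 replicate 2. No fold change of the 5 genes tested changed sign under any alternative run. Ptx3 kept its call under all 16 alternatives and Chi3l1 under the 15 in which it was tested; a minimum of 50 in 3 samples removed Chi3l1. The Chi3l1 difference of 3.76, which rests on 4 reads in 4TO7, ranged from 2.33 with a pseudocount of 5 to 4.45 with DESeq2. Slpi lost its call only without a low-value minimum (-3.44, adjusted p = 0.0869). Lcn2 passed with a pseudocount of 5 (3.09), quantile normalisation (3.11) and the replicate block (3.18, adjusted p = 0.0308). Leaving out 1 library gave 1.54 to 4.05, and Lcn2 passed when that library was from 4TO7 but not when it was from 4T1. Cp passed with equal totals per sample (-1.41), quantile normalisation (-1.44), edgeR (-1.53), DESeq2 (-1.52) and the replicate block (-1.28, adjusted p = 0.0388). Leaving out 1 library gave -1.94 to -0.89, and Cp passed only without 4TO7 replicate 2. Leaving out 1 library gave 3 to 5 calls among the 9 genes. Equal totals moved the median of all genes from 0.03 to -0.10 on the log2 scale. Same-numbered libraries of the 2 lines deviated together at r = -0.01, 0.27 and 0.33, and differently numbered ones at -0.39 to 0.27. So few values cannot decide whether the numbers pair the samples. The block raised the genes called from 6997 to 7750. Over all genes the alternatives gave 5242 to 8064 calls. Differences in Saa1, Saa2 and Hp were not detectable at this depth. For Saa3, with few reads, the lines overlapped and the minimum for testing was not met.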

Other observations

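The metallothioneins Mt1 and Mt2, metal-binding proteins induced in the acute phase, varied more within each line than between the lines. Mt2 had 37.3, 2364 and 92.7 normalised reads in the 4T1 libraries, against 53.3, 1685 and 3298 in those of 4TO7. Mt1 followed the same arrangement, at 478, 3480 and 421 in 4T1 and 303, 2946 and 4870 in 4TO7. Neither passed (adjusted p = 0.537 for Mt1 and 0.456 for Mt2, limma). The libraries with the highest values were 4T1 replicate 2 and 4TO7 replicates 2 and 3 for both genes. Mt1 and Mt2 were named after their values were seen.

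Osmr, the oncostatin M receptor, and Atf3, a stress-induced transcription factor, were not called between the lines (adjusted p = 0.431 and 0.412, limma) but were low in 4TO7 replicate 2. Osmr had 264, 74.4 and 450 normalised reads in 4TO7 replicates 1 to 3, and Atf3 238, 29.4 and 361. Both were named after their values were seen.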
